A study of Mus musculus with 20 samples.

Results

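Rsad2, Cmpk2, Mx1, Mx2, Isg15, Usp18, Bst2, Ifi44, Ifi27l2a and Xaf1 are 10 interferon-stimulated genes with known effector roles, out of 31093 gene names on the array. The members were the non-control probes that carry 1 of these names in the array files, 13 probes in all, and the question put to them was whether Rsad2 and its chromosomal neighbour Cmpk2 moved against the others after irradiation. The genes and the question were picked with the changes after 7 Gy already known, so those changes are given here as a description and support no test. Levels are log2 signals after subtraction of the array median over 39429 non-control probes, and all 10 members were among the 15749 genes tested.

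Blood was taken by cardiac puncture from individual young adult male mice 24 h after whole body exposure to 7 Gy of X-rays or after sham irradiation (0 Gy). The mice were wild type (WT, C57BL/6) or Il10-/- (B6.129P2-Il10tm1Cgn/J), a germline deficiency of the anti-inflammatory cytokine interleukin 10 that serves as a model of inflammatory bowel disease, and both came from crosses of heterozygotes. There were 4 groups of 5 mice and 20 arrays, with globin-reduced RNA labelled in 1 colour. Each of 5 slides held 1 array of every group, and the slides coincided with the replicate numbers. Changes within a slide are therefore given beside the pooled ones, as ranges over the slides or as counts of slides.

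Type I interferons bind a receptor shared by nearly all nucleated cells, and the receptor's kinases activate transcription factors that bind interferon-stimulated response elements in the promoters of many genes. The products of these genes block viral entry, translation and replication, and some of them limit the signal itself. Rsad2 encodes viperin, a radical SAM enzyme that converts CTP into a chain-terminating nucleotide, and Cmpk2 encodes a mitochondrial nucleotide kinase that supplies CTP. The 2 genes lie side by side and are usually induced together by interferon.

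Both lie on mouse chromosome 12 in GRCm38.p6. Rsad2 spans chr12:26442743-26456452 and Cmpk2 spans chr12:26469117-26479837, with 12664 bases between them, and they are read in opposite directions away from this interval. The array manufacturer placed the Rsad2 probe at chr12:27127859-27127918 on the minus strand and the Cmpk2 probe of the main analysis at chr12:27164119-27164178 on the plus strand, both in mm9. The promoter sequences of 6 members were in the RefSeq table used here. The stretches before the annotated start of Rsad2, of its neighbour Cmpk2, of Isg15, whose change like that of Rsad2 was negative and not called, and of Bst2, which rose, are shown because these 4 genes are described in full further on. They are written 5′ to 3′ on the strand of the gene, and capitals mark matches on either strand to the core of the interferon-stimulated response element, which is GAAA, any 2 bases and GAAA again.
Rsad2, chr12:26456453-26456602, minus strand: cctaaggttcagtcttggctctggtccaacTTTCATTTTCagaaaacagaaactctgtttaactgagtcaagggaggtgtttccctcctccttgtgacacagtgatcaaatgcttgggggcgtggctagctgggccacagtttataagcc
Cmpk2, chr12:26468967-26469116, plus strand: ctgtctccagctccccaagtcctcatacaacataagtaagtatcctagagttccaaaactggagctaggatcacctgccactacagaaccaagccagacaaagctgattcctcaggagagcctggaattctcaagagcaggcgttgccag
Isg15, chr4:156200819-156200968, minus strand: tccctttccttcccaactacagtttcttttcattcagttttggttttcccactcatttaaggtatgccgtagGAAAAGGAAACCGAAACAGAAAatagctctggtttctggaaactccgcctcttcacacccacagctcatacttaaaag
Bst2, chr8:71537473-71537622, minus strand: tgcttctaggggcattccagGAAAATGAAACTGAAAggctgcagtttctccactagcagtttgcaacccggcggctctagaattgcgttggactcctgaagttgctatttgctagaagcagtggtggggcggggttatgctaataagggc

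In the 250 bases before the start in that table, Rsad2 held 1 match, on the strand opposite to that of the gene. Isg15 held 3 overlapping matches and Bst2 held 2. Cmpk2, Ifi44 and Xaf1 held none of these letters in this window. The same motif occurred in 978 of 32851 promoters (2.98%) and in 10 of the 37 promoters found for a list of other interferon-stimulated genes. The gamma-activated site TTCNNNGAA, which is its own reverse complement and partly overlaps the other motif in Bst2, occurred in 2306 promoters (7.02%) and among the 6 members in Bst2. Matches were thus present in Rsad2 and Isg15, whose changes after irradiation were negative and not called, and in Bst2, which rose.

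Several facts of the whole series touch these genes. The share of probes well above background ranged from 34.6% to 57.8% over 19 arrays and was 29.9% on the WT 0 Gy array of replicate 5, whose repeated spots also varied most (SD 0.336 on the log2 scale, against 0.0829 to 0.143 on the others). The WT changes of Rsad2 and Isg15 and the Bst2 difference between genotypes at 0 Gy are given with and without it. So are the interactions of Rsad2, Cmpk2 and Bst2 and the ranking of genes like Rsad2. When 1 array was left out, omitting this one also gave the lowest WT change after 7 Gy for some other members. These were Cmpk2 (1.18), Usp18 (2.26), Bst2 (3.69), Ifi27l2a (3.09) and Xaf1 (1.58). For Mx1, Mx2 and Ifi44 the lowest change came from omitting another array. In every group replicates 1 and 2 were closer to each other than any other pair. Their differences were 1.70 to 2.31 times the noise of repeated spots, and 2.46 to 7.39 times in the other pairs. This noise covers spots within an array only, so it cannot show whether replicates 1 and 2 are separate mice. They were kept as separate mice, as numbered in the labels, and the group sizes and counts of slides below rest on this. The Il10 probe was well above background on 10 of 10 arrays labelled Il10-/- and on 0 of 10 labelled WT (2.75 ± 0.31 and 2.71 ± 0.62 at 0 and 7 Gy against -1.54 ± 0.45 and -1.85 ± 0.61, SD, n = 5). This goes against the plain reading of the label. Where the probe lies relative to the altered part of the allele was not shown, so every direction between genotypes below rests on the labels. At 0 Gy the median difference of 6 mature neutrophil markers was 1.89 on the log2 scale, higher in mice labelled Il10-/-, and 3 of the 6 (S100a8, S100a9 and Retnlg) were called by limma.

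After 7 Gy, 7 of the 10 genes rose in both genotypes and Cmpk2 rose in Il10-/- mice. Rsad2 and Isg15 had negative changes in both genotypes, none of them called. Normexp background correction turned the WT values of both positive and moved the WT median of all features to 0.65. In WT mice 7 of 10 members were called higher and 0 lower, where a gene was called in limma if its unadjusted p was under 0.001 and its Benjamini-Hochberg adjusted p under 10%; 4.48% of all 18587 features were called higher, 2.32% lower and 6.8% either way. In Il10-/- mice 8 of 10 were called higher and 0 lower, against 3.29% and 5.87% of all features and 9.16% either way. All irradiated arrays lay above all sham arrays for 7 members in WT and 8 in Il10-/- mice, and below them for 0. Over all features 11.8% were higher and 4.26% lower without overlap in WT, and 6.13% and 10.9% in Il10-/- mice. On each of the 5 slides Mx1, Mx2, Usp18, Bst2, Ifi44, Ifi27l2a and Xaf1 were higher in the irradiated mouse of both genotypes. Since the members were chosen on these contrasts, nothing is read from the excess. The median change of the 10 members was 2.25 in WT and 2.2 in Il10-/- mice on the log2 scale, beside -0.02 and -0.10 over all features. In whole blood, fewer cells of a type and less RNA per cell cannot be told apart.

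**Figure D1:**
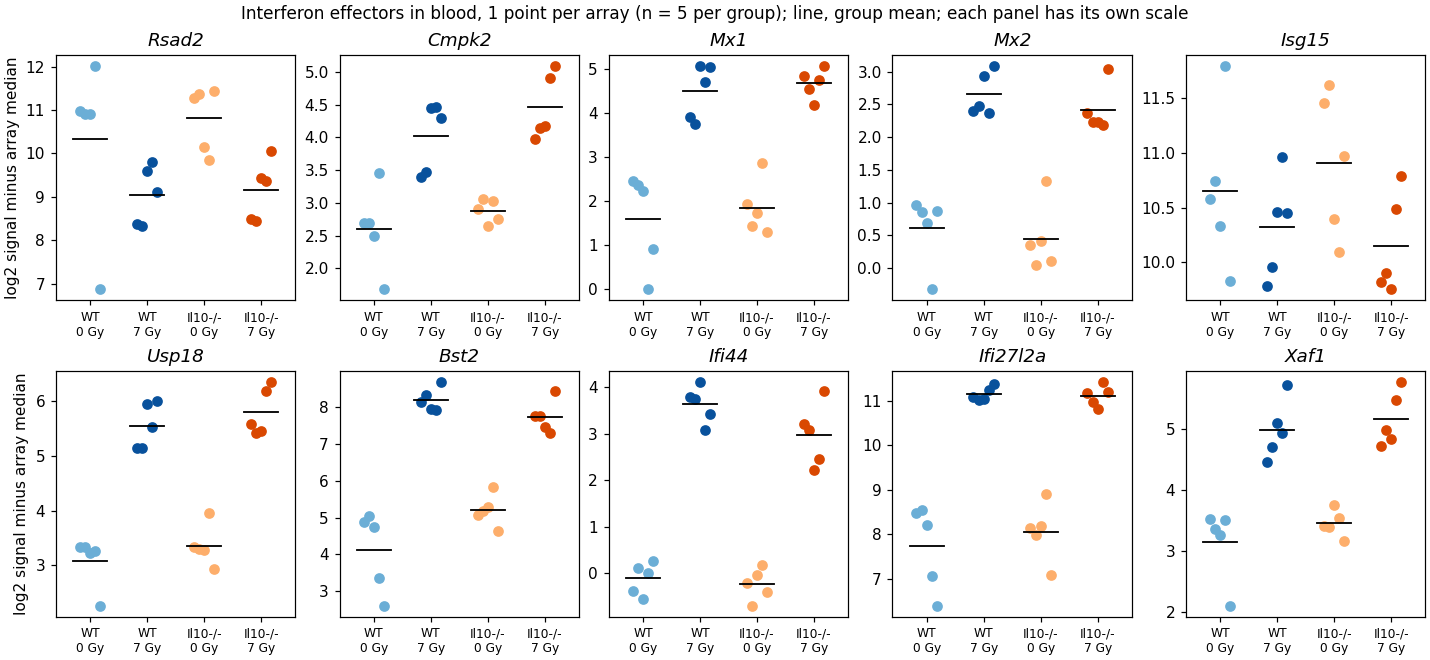
Level of each member on every array (vertical axis, log2 signal minus array median, with its own scale in each panel) in the 4 groups of 5 mice; the line is the group mean and points run from replicate 1 on the left to 5 on the right. For Mx1, Mx2, Usp18, Bst2, Ifi44, Ifi27l2a and Xaf1 all irradiated arrays lie above all sham arrays of the genotype, whereas Rsad2 and Isg15 overlap; the single low Rsad2 point at 6.88 is the WT 0 Gy array of replicate 5.

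Rsad2 was measured by 1 probe that was well above background on all 20 arrays. On the WT 0 Gy arrays of replicates 1 to 5 its level was 10.98, 10.91, 10.91, 12.01 and 6.88, and on the WT 7 Gy arrays it was 8.38, 8.32, 9.60, 9.79 and 9.11. Without the fifth sham array, all irradiated mice were below all sham mice, and with it the groups overlapped. The WT change was -1.30 on the log2 scale (SE 0.74, n = 5 and 5; limma adjusted p = 0.266), and without that array it was -2.16 (limma adjusted p = 0.00459) and met the rule for a call, where 8.77% of features were called, 4.85% lower and 3.92% higher. On the slides, Rsad2 was lower in the irradiated WT mouse on 4 of 5, with changes from -2.60 to 2.24, the last on the slide of the fifth sham array.

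The Rsad2 level in Il10-/- mice was 11.27, 11.36, 10.16, 9.86 and 11.43 without irradiation and 8.49, 8.44, 9.44, 9.36 and 10.06 after 7 Gy. Only the irradiated mouse of replicate 5 (10.06) reached above the lowest sham mouse (9.86). The change was -1.66 (SE 0.41, limma adjusted p = 0.0142), and at an unadjusted p of 0.00148 it was just outside the threshold for a call. It was lower on 5 of 5 slides, by -2.92 to -0.49. Among 18587 features its change ranked 555th from the lowest.

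Isg15, a ubiquitin-like protein that is attached to target proteins and is also secreted, was the other member with a negative change, which turned positive in WT under normexp background correction. Its main probe read 10.58, 10.75, 10.33, 11.79 and 9.83 in WT sham mice and 9.78, 9.96, 10.46, 10.96 and 10.45 in irradiated WT mice. The Il10-/- mice read 11.45, 11.62, 10.39, 10.10 and 10.97 without irradiation and 9.82, 9.90, 9.75, 10.48 and 10.78 after it. The groups overlapped in both genotypes. The change was -0.33 in WT (SE 0.42, limma adjusted p = 0.656) and -0.76 in Il10-/- mice (SE 0.34, limma adjusted p = 0.131), and neither was called. With 1 array left out the WT value ranged from -0.54, without the sham array of replicate 5 (limma adjusted p = 0.305), to -0.048, without the sham array of replicate 4. A second Isg15 probe gave -0.26 and -0.81. Within slides Isg15 was lower on 3 of 5 slides in WT and on 4 of 5 in Il10-/- mice.

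Cmpk2 had positive changes, as the majority did. Its level was 2.70, 2.69, 2.49, 3.46 and 1.68 in WT sham mice and 3.40, 3.48, 4.44, 4.47 and 4.3 in irradiated WT mice, so that the groups overlapped through the sham mouse of replicate 4 alone. In Il10-/- mice it was 2.91, 3.06, 2.64, 3.02 and 2.75 without irradiation and 3.97, 4.15, 4.18, 4.91 and 5.09 after it, with no overlap. Thus every irradiated Il10-/- mouse exceeded every sham mouse of that genotype. The change was 1.41 in WT (SE 0.42, limma adjusted p = 0.0323, not called at an unadjusted p of 0.00375) and 1.58 in Il10-/- mice (SE 0.26, limma adjusted p = 0.00187, called). The second Cmpk2 probe gave 1.28 and 1.49. On each of the 5 slides Cmpk2 was higher in the irradiated mouse of both genotypes, by 0.70 to 2.62 in WT and 1.07 to 2.34 in Il10-/- mice, while Rsad2, next to it on the chromosome, was lower on 9 of the 10 slide pairs.

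**Figure D2:**
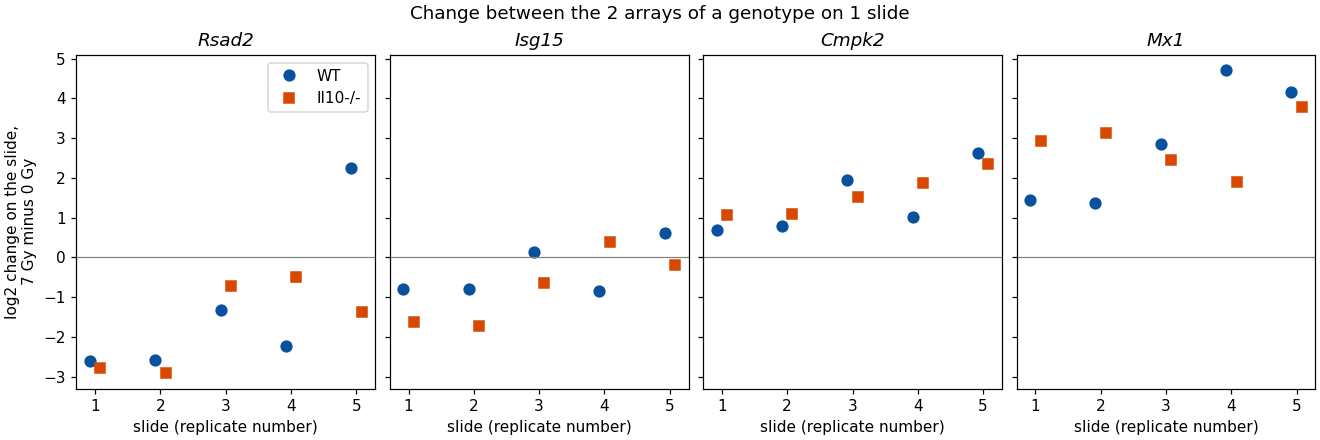
Change between the irradiated and the sham array of 1 genotype on the same slide (vertical axis, log2, 7 Gy minus 0 Gy) for Rsad2, Isg15, Cmpk2 and Mx1 on the 5 slides (horizontal axis, equal to the replicate number). Rsad2 lies below 0 on all slides except WT on slide 5 (2.24), and Cmpk2 and Mx1 lie above 0 on every slide in both genotypes.

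The antiviral GTPases Mx1 and Mx2 rose in both genotypes. Mx1 was at 2.47, 2.37, 2.22, -0.01 and 0.90 in WT sham mice and at 3.92, 3.75, 5.07, 4.70 and 5.06 after 7 Gy. The Il10-/- levels were 1.92, 1.42, 1.74, 2.85 and 1.29 and then 4.85, 4.56, 4.18, 4.76 and 5.07. The groups did not overlap, and the changes were 2.91 (SE 0.51) and 2.84 (SE 0.31). Mx2 ranged from -0.32 to 0.97 in WT sham mice and from 2.37 to 3.09 after irradiation, and from 0.04 to 1.33 and 2.18 to 3.04 in Il10-/- mice, with changes of 2.04 and 1.96. The lowest WT sham value of both genes came from replicate 4 and was not well above background.

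Bst2, or tetherin, which holds budding virus at the cell surface, rose in both genotypes. Its level was 4.87, 5.05, 4.75, 3.37 and 2.61 in WT sham mice and 8.14, 8.31, 7.95, 7.92 and 8.67 in irradiated WT mice. The Il10-/- levels were 5.08, 5.17, 5.28, 5.83 and 4.64 and then 7.75, 7.74, 7.46, 7.30 and 8.44. The change was 4.07 in WT (SE 0.48, limma adjusted p = 0.000126) and 2.54 in Il10-/- mice (SE 0.28, limma adjusted p = 0.00013), and within slides it was 3.21 to 6.05 and 1.48 to 3.80. No irradiated mouse came near a sham mouse in either genotype.

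Ifi44 and Ifi27l2a, both induced by interferon, also rose. Ifi44 was at -0.38, 0.11, -0.54, 0.01 and 0.26 in WT sham mice, well above background on 2 of these 5 arrays, and at 3.79, 3.75, 4.10, 3.07 and 3.43 after 7 Gy. The Il10-/- sham mice were at -0.21, -0.69, -0.03, 0.19 and -0.40, well above background on 3 of 5 arrays, and the irradiated mice at 3.22, 3.08, 2.22, 2.46 and 3.92. The changes were 3.74 and 3.21, from sham levels close to the background of the array. Ifi27l2a ranged from 6.39 to 8.55 and from 11.03 to 11.39 in WT and from 7.08 to 8.90 and 10.83 to 11.42 in Il10-/- mice, with changes of 3.42 and 3.06.

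Usp18 and Xaf1 rose in both genotypes. Usp18 removes Isg15 from proteins and also dampens the type I interferon receptor. Its level was 3.34, 3.34, 3.22, 3.26 and 2.26 in WT sham mice and 5.14, 5.14, 5.94, 5.53 and 6.00 after irradiation, and the Il10-/- levels were 3.33, 3.30, 3.28, 3.95 and 2.92 and then 5.58, 5.41, 5.46, 6.19 and 6.34. The groups did not overlap. The Usp18 value of WT sham replicate 5 (2.26) was not well above background. The change was 2.47 (SE 0.38) in WT and 2.44 (SE 0.27) in Il10-/- mice. Xaf1, a pro-apoptotic binding partner of XIAP, ranged from 2.10 to 3.52 and from 4.46 to 5.73 in WT and from 3.16 to 3.76 and 4.73 to 5.77 in Il10-/- mice. Its changes were 1.84 (SE 0.41) and 1.71 (SE 0.25), again without overlap. In WT the Xaf1 call was lost without the 7 Gy array of replicate 3 (change 1.81) or of replicate 5 (1.65). The second Xaf1 probe did not pass the background filter and was well above background on 2 of 20 arrays.

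**Figure D3:**
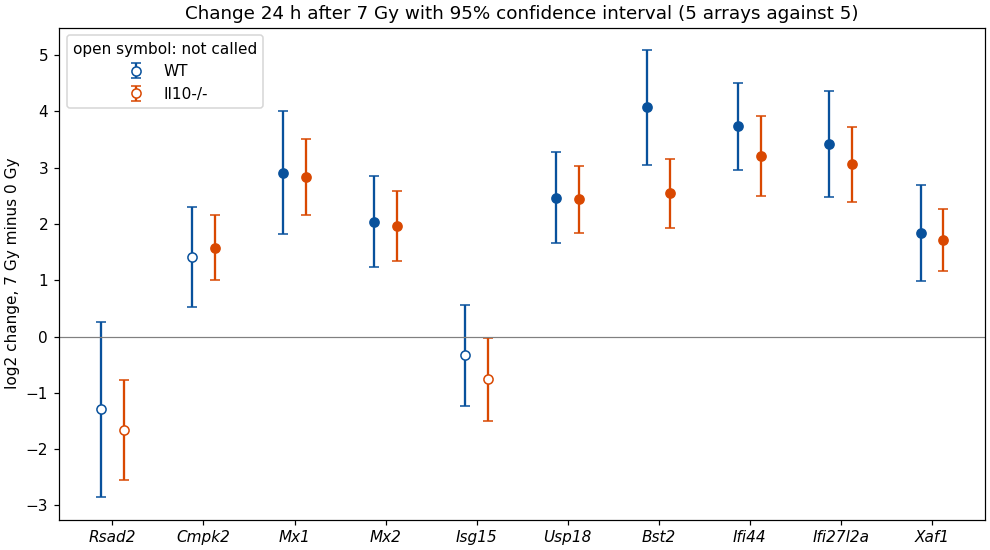
Change after 7 Gy for each member (vertical axis, log2, 7 Gy minus 0 Gy) in WT and Il10-/- mice; points are limma estimates, bars 95% confidence intervals (5 arrays against 5), and open points were not called. Rsad2 and Isg15 are the 2 members below 0, and Cmpk2 lies above 0 in both genotypes. Normexp background correction turned the WT values of Rsad2 and Isg15 positive and moved the WT median of all features to 0.65.

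To remove the array scaling from the comparison, the mean of the other 8 members was subtracted from Rsad2 on each array; only the change of this difference has a meaning, since probes differ in brightness. The difference fell from 6.48 ± 1.71 to 2.67 ± 0.55 in WT (SD, n = 5), a change of -3.81, and from 6.69 ± 1.01 to 2.90 ± 0.57 in Il10-/- mice, a change of -3.78. The groups did not overlap: the lowest sham values were 3.72 and 5.27, and the highest irradiated values 3.45 and 3.57. Most of the 8 reference genes rose, and were chosen with that known, so a gene without change would also fall in this difference. Rsad2 itself changed by -1.30 in WT and -1.66 in Il10-/- mice. For Cmpk2 the same difference changed by -1.11 in WT and -0.54 in Il10-/- mice, which is to say that it rose less than the average of the others. With Isg15 taken out of the reference, an alternative chosen after its negative change had been seen, the changes were -4.22 and -4.19 for Rsad2, -3.26 and -3.30 for Isg15, and -1.51 and -0.96 for Cmpk2.

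Genotype was compared at each dose. The members had been chosen on their changes with dose, with the levels of all 4 groups known. At 0 Gy 0 of 10 members were called by limma, against 0.845% of all features, and 1 member had an unadjusted p under 0.05, against 16.1% of features. That member was Bst2, higher in mice labelled Il10-/- by 1.07 (SE 0.48, limma adjusted p = 0.293). The Bst2 difference fell to 0.69 without the WT array of replicate 5, where 0.644% of features and 0 members were called, and within slides it was positive on all 5 (0.12 to 2.46). No member separated the genotypes without overlap at 0 Gy, against 3.98% of features that were higher and 0.554% that were lower in Il10-/- mice. The median change of all features was itself 0.36 in this comparison. At 7 Gy 0 of 10 were called, against 0.00538% of features, and 0 had an unadjusted p under 0.05, against 11.1% of features. Rsad2 differed by 0.12 (95% confidence interval -0.76 to 0.99) and Cmpk2 by 0.44 (-0.27 to 1.15). Normexp background correction turned both negative, where the median of all features moved to -0.50. Bst2 and Mx2 were lower in mice labelled Il10-/- on 5 of 5 slides at 7 Gy, by -0.62 to -0.22 and by -0.71 to -0.02, and neither was called.

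The response to irradiation was then compared between genotypes with an interaction term over all 20 arrays. No member was called, 0 of 10, and 0% of all features were called. The lowest unadjusted p of a member was 0.0131 for Bst2, whose increase was smaller in Il10-/- mice by 1.53 (95% confidence interval of the interaction -2.70 to -0.35, limma adjusted p = 0.688), and it was the 1 member under 0.05, as were 7% of all features. Without the WT 0 Gy array of replicate 5 the Bst2 interaction was -1.15 (-2.13 to -0.17, limma adjusted p = 0.822). For Rsad2 the interaction was -0.36 (-2.28 to 1.56), and without that array it turned to 0.51 (-0.74 to 1.75, limma adjusted p = 0.877). For Cmpk2 it was 0.17 (-0.83 to 1.16), and 0.40 (-0.50 to 1.29) without the array. The Cmpk2 interaction turned negative under normexp background correction, where the median of all features moved to -1.01. With all 20 arrays the interval for Rsad2 is wide enough to hold differences larger than its change in either genotype.

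Among 40 other interferon-stimulated genes, listed with earlier results of these data known, 31 were tested. In WT mice 17 were called higher and 0 lower, against 4.48% and 2.32% of all features, with a median change of 1.88. In Il10-/- mice 16 were called higher and 1 lower, against 3.29% and 5.87% of all features, with a median of 1.37. Ifit3, which restricts viral RNA translation with its relatives, had the largest change in both genotypes (4.62 and 4.72). At the other end was Ms4a4c, a membrane protein of leukocytes, with -0.96 in WT, not called, and -1.26 in Il10-/- mice, called. Ms4a4c was the 1 gene of this list called lower. Oas3 (-0.70 in WT and -0.61 in Il10-/- mice), Sp100 (-0.58 and -0.46) and Isg20 (-0.39 and -0.54) also had negative changes, none of them called.

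Upstream of these genes limma called none of the tested interferon and receptor genes after irradiation. In WT 0 of the 9 ligands and 0 of the 4 receptors tested had an unadjusted p under 0.05, where 29.1% of all features did, and in Il10-/- mice 1 and 2, where 35.5% did. The list of ligands held 21 genes, of which 16 were on the array and 10 passed the background filter. Ifnb1 did not pass and was well above background on 0 arrays of each group. The extremes of those tested were Ifng (0.75) and Ifna14 (-1.10) in WT and Ifna11 (0.68) and Ifna14 (-0.58) in Il10-/- mice. Ifna11 was well above background on 0 sham arrays and on 1 irradiated array of each genotype. Of 6 receptor genes 4 were tested, from Ifngr2 (0.17 and -0.22) to Ifnlr1 (-0.72 and -1.75). Ifnlr1 was called higher in mice labelled Il10-/- at 0 Gy (2.67, limma adjusted p = 0.0345), and of the 31 other interferon-stimulated genes tested only Ifitm1, a membrane protein that hinders viral entry, was called there (3.01, limma adjusted p = 0.0158). Of 10 signal transducers 8 were tested, with 1 called lower in each genotype and 1 called higher in Il10-/- mice. Irf7, the transcription factor that amplifies interferon production, had the largest increase at 1.88 in WT, not called, and 1.56 in Il10-/- mice, called. Irf8, a factor of B cells, monocytes and dendritic cells, was called lower in both (-1.78 and -2.02).

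The inhibitors of the signal had 5 of 7 genes tested and none called (unadjusted p under 0.05 for 1 in WT and 3 in Il10-/- mice), with Ptpn11 highest (1.25 and 0.72) and Ptpn6 lowest (-0.65 and -0.66). The enzymes that join Isg15 to proteins are listed in full: Uba7, the activating enzyme, changed by 1.42 in WT and 1.09 in Il10-/- mice. Ube2l6, the conjugating enzyme, changed by -0.51 and -0.15, the ligase Herc6 by 0.81 and 0.69, and Arih1 by -0.99 and -0.71, and Trim25 did not pass the variation filter. None was called, and 3 of the 4 tested had an unadjusted p under 0.05 in each genotype. Over all features the share under 0.05 was 29.1% in WT and 35.5% in Il10-/- mice. Among enzymes of CTP and related nucleotides, 4 of 10 were tested and none called (unadjusted p under 0.05 for 0 in WT and 1 in Il10-/- mice), from Umps (0.66) to Ctps (-0.38) in WT and from Dck (-0.19) to Ctps (-1.07) in Il10-/- mice.

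The genes beside Rsad2 and Cmpk2 gave little to set against them. 4930549C15Rik, a long noncoding RNA gene on the Rsad2 side, was expressed on all 20 arrays and changed by -0.60 in WT and -0.02 in Il10-/- mice, and neither was called. On the Cmpk2 side 1700020D12Rik did not pass the background filter. No probe carried the name Mir6538 or Gm46344, the nearest annotated genes on the 2 sides.

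Genes were ranked by Pearson r with Rsad2 over the 20 arrays, among 18740 other genes past the background filter with 1 probe each; r is a description, since the arrays share groups and slides. The closest were Wdr26 (0.976), Ackr1 (0.971), Gstm5 (0.963), a probe without a gene name (0.959) and Mturn (0.954). Wdr26 is part of a ubiquitin ligase that acts in maturing red cells, and Ackr1 is the Duffy chemokine receptor of red cells. Isg15 ranked 582nd (0.820), and the other 8 members had negative r, from -0.15 for Cmpk2, ranked 15679th, to -0.63 for Mx2. Wdr26 changed by -1.73 in WT, not called, and by -2.46 in Il10-/- mice, called, and on the WT sham arrays it ranged from 1.94 to 8.41. The order depended on the WT 0 Gy array of replicate 5. Over the other 19 arrays, an alternative chosen after the data were seen, Epb4.1 (0.992), the band 4.1 protein of the red cell membrane, Anp32e (0.991) and Rfk (0.985) ranked 1st to 3rd, Ackr1 6th (0.984), Wdr26 50th (0.967), Isg15 741st (0.833) and Cmpk2 15984th (-0.52).

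Cmpk2 ranked its neighbours differently. The closest genes that are no members were Ifit1 (0.961), another interferon-induced RNA-binding protein, Dyrk3 (0.945), Bbc3 (0.941), which encodes the p53 target PUMA, a transcript with no gene symbol (0.939) and Pdgfa (0.930). Among members Xaf1 ranked 2nd (0.947) and Usp18 6th (0.939), and Rsad2 ranked 14018th. Around the group means the order changed: over deviations from the 4 group means Rsad2 and Cmpk2 had an r of 0.79 and Rsad2 and Isg15 of 0.77, whereas Rsad2 and Mx2 had -0.29. By these r values Cmpk2 ranked only 1572nd and Isg15 1808th among 18740 genes in likeness to Rsad2. They include the WT 0 Gy array of replicate 5 and were not repeated without it. The r of 0.79 did not describe every group: among sham Il10-/- mice Rsad2 was lowest in replicate 4 (9.86), where Cmpk2 (3.02) was close to its highest value (3.06).

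Since the genes most like Rsad2 include red cell genes, erythroid markers were set beside it. The mean of the 3 erythroid markers used, all past the background filter, ranged from 8.55 to 10.25 in WT sham mice and from 7.41 to 8.88 after 7 Gy, and from 8.52 to 9.76 and 7.49 to 8.87 in Il10-/- mice. Of the 3, Slc4a1 (band 3; -2.93 and -3.15) was called lower in both genotypes, while Alas2 (-0.42 and 0.05) and Klf1 (0.29 and -0.41) were not called. Subtracting this mean from Rsad2 on each array, a step chosen after the values were seen, gave 1.31 ± 1.82 and 1.04 ± 0.27 in WT at 0 and 7 Gy and 1.64 ± 0.27 and 1.16 ± 0.28 in Il10-/- mice (SD, n = 5). The WT sham array of replicate 5 stood at -1.92, and without it the WT values ranged from 1.76 to 2.43 at 0 Gy and from 0.80 to 1.49 at 7 Gy, without overlap. The Il10-/- values ranged from 1.34 to 1.92 and from 0.92 to 1.62 and overlapped. For Isg15 the same subtraction gave 1.63 ± 0.39 and 2.32 ± 0.18 in WT and 1.74 ± 0.39 and 2.15 ± 0.22 in Il10-/- mice.

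**Figure D4:**
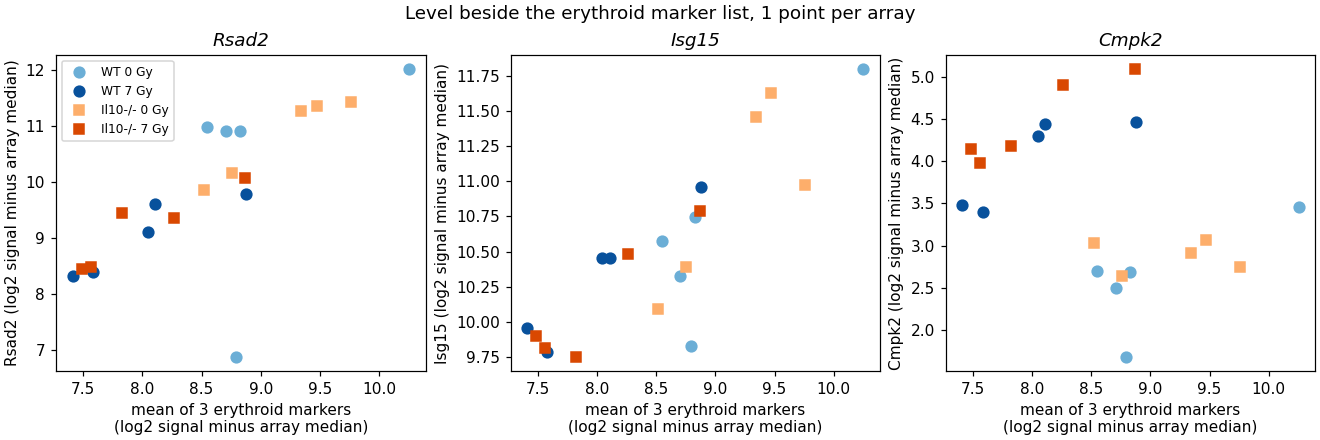
Level of Rsad2, Isg15 and Cmpk2 (vertical axes) against the mean of 3 erythroid markers (horizontal axis), all as log2 signal minus array median, with 1 point per array in the 4 groups. The WT 0 Gy array of replicate 5 stands apart in Rsad2 at 6.88, and the marker means of the irradiated arrays (7.41 to 8.88 in WT, 7.49 to 8.87 in Il10-/- mice) overlap those of the sham arrays.

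Other cell type lists also differed with dose. B cell markers were called lower for 5 of 6 genes in both genotypes, and their mean ranged from 4.8 to 6.21 at 0 Gy and from 2.75 to 3.62 at 7 Gy in WT, and from 4.85 to 5.83 and 2.39 to 3.00 in Il10-/- mice. Platelet markers ranged from 7.69 to 9.14 and 9.50 to 10.63 in WT, with 0 of 5 called by limma and 5 at an unadjusted p under 0.05. In Il10-/- mice they ranged from 8.05 to 10.88 and 10.57 to 11.49, with 0 called and 4 under 0.05. Of all features 29.1% in WT and 35.5% in Il10-/- mice were under 0.05. Monocyte markers ranged from 3.35 to 5.38 and 4.90 to 5.97 in WT and from 5.22 to 5.90 and 5.12 to 5.70 in Il10-/- mice; of 4 tested, 2 were called higher and 1 lower in WT, and 1 higher and 2 lower in Il10-/- mice. Hepatocyte markers, which blood should lack, ranged from 0.32 to 2.97 in WT sham mice and from 3.66 to 12.56 in irradiated WT mice, and from 3.17 to 10.76 and 1.69 to 10.79 in Il10-/- mice; 5 of 7 were called higher in WT and 0 of 7 in Il10-/- mice. Heart muscle markers ranged from -0.92 to 2.94 and 0.15 to 9.34, and from -0.76 to 4.43 and 2.11 to 9.18, with 0 and 4 of 4 called higher. Markers of blood were present on all arrays, the mean of mature neutrophil markers being between 6.74 and 10.30 and that of T cell markers between 4.48 and 6.67. The part of these markers in the changes of the 10 members was not tested.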

How the data were processed

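The authors scanned single-colour Agilent 4x44K v2 mouse arrays and deposited Feature Extraction files; the submitters' notes name version 10.7 and the file headers 12.0.2.2. The deposited values used here are intensity values: the background-corrected processed signal and, for 1 alternative, the mean signal and local background intensity. The deposited series table holds the authors' median-normalized log2 values; the reference of that median is not given in the sources used here, and they were used as an alternative only. Here, outlier spots were dropped, spots averaged per probe, log2 taken and the array median subtracted. Features marked as not above background or non-uniform on 25% of arrays or more were removed, as were those with under 20% of arrays at least 1.5-fold from the median, leaving 18587. Tests used limma 3.58.1 (R 4.3.3) on the 2 groups compared, with calls where p was under 0.001 and the Benjamini-Hochberg adjusted p under 10%, and an interaction over 20 arrays. A member's main probe was its brightest past the background filter. Genes named besides members were the 5 most like Rsad2 and Cmpk2 and the extremes of each pathway list. Lists of 5 or fewer genes were named in full, as were the chromosomal neighbours and other interferon-stimulated genes with negative changes in both genotypes. Promoters came from RefSeq (GRCm38.p6), trimmed to end before the outermost annotated start. Members, lists and tests were chosen with earlier results of these data known. The fit was tested on simulated data. Array number limits precision. Replicates share slides (each slide holds all 4 groups); the mean correlation of same-slide deviations between groups ranged from -0.13 to 0.41. Some genes of the lists are not reported here and entered no list value.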

Additional observations from a re-analysis of the deposited data

Results flagged for a closer look

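Of 48 groups of 5 arrays examined, 7 held a value whose gap to its neighbour was large for the range of the group. Chance gives about 1 in 20 for a single group. The 48 groups share arrays and are not independent, so nothing is read from the number found. The WT 0 Gy array of replicate 5 was low in Rsad2 (6.88, next 10.91), Usp18 (2.26, next 3.22) and Xaf1 (2.10, next 3.26). Of these values that of Usp18 was not well above background. Mx2 was low on the WT 0 Gy array of replicate 4 (-0.32, next 0.70) and high on Il10-/- arrays, at 0 Gy in replicate 4 (1.33, next 0.41) and at 7 Gy in replicate 5 (3.04, next 2.37). Cmpk2 minus the mean of the other 8 effectors stood high on the WT 0 Gy array of replicate 4 (-0.12, next -1.47).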

How the results depend on the processing

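Scaling to the 75th percentile or to a reference array, quantile normalization, the deposited log2 table, no filter, averaging replicates 1 and 2 and the replicate block (7 members called in WT and 8 in Il10-/- mice; 0 in the genotype contrasts and the interaction) left the number of members called within 1.5 times its value. Normexp background correction did not: 0 members were called in Il10-/- mice, the WT changes of Rsad2 and Isg15 turned to 0.17 and 0.59 where the median of all features moved to 0.65, and the change of Rsad2 against the other 8 was -1.93 in WT and -2.95 in Il10-/- mice; the cause was not tested. It also turned the 7 Gy genotype difference of Rsad2 to -0.74 and of Cmpk2 to -0.26 and the Cmpk2 interaction to -0.47. There the median of all features moved to -0.50 for the 7 Gy genotype difference and to -1.01 for the interaction. Under normexp the WT calls of Mx1 and Mx2 were lost. Leaving Isg15 out of the reference, chosen after seeing the data, moved Cmpk2 in Il10-/- mice to -0.96. Under a 5% Benjamini-Hochberg rate alone Rsad2 was called lower in Il10-/- mice and Cmpk2 higher in WT, which 1 fit over all 4 groups also called (adjusted p = 0.00447). Leaving out 1 array gave 6 to 8 members called in WT and 8 or 9 in Il10-/- mice, 0 in the other comparisons, the Rsad2 interaction from -0.78 to 0.51, the Cmpk2 interaction from -0.047 to 0.40, the Rsad2 difference at 7 Gy from -0.11 to 0.31, WT Rsad2 from -2.16 to -0.88, and Rsad2 against the other 8 from -4.50 to -3.33 in WT and -4.13 to -3.53 in Il10-/- mice. Rsad2 was called lower in Il10-/- mice without the 0 Gy array of replicate 4 (-1.90) or the 7 Gy array of replicate 5 (-1.88). Isg15 failed the variation filter under quantile normalization. Over all features, calls in WT went from 1263 to between 261 (normexp) and 2712 (5% rate alone), in Il10-/- mice from 1702 to between 0 (normexp) and 4053, and at 0 Gy between genotypes from 157 to between 0 (normexp) and 384 (replicate block). With 75th percentile scaling the WT split was 795 higher and 761 lower (832 and 431 as reported) and the median of all features -0.28, and with reference array scaling the Il10-/- split was 940 and 922 (611 and 1091 as reported). Cmpk2 against the other 8 ranged from -1.22 to -0.82 in WT and -0.65 to -0.44 in Il10-/- mice when 1 array was left out. Low signal limits Ifi44 and Mx2 at 0 Gy, and n = 5 limits the interaction.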
